A study of Mus musculus with 6 samples.

Results

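The mitochondrial ribosomal protein genes of the mouse were read here as the rows of a liver count table whose symbol is Mrpl or Mrps, a number and at most a letter. The rule took 77 of the 35977 genes in the table, 48 with an Mrpl symbol (large subunit) and 29 with an Mrps symbol (small subunit), and used no measured value. All 77 passed the filter on low counts, and so did 14374 genes in all. Messenger RNA of bulk liver was sequenced from mice given an adeno-associated virus of serotype 9 (AAV9). In the Cre-miR122 group (replicates 1, 2 and 4) the vector was AAV9-Tnnt2-Cre-miR122, in which the promoter of the troponin gene Tnnt2 drives Cre recombinase and miR-122 target sites are built into the transcript. MiR-122 is the dominant microRNA of hepatocytes. In the Cre group (replicates 10, 11 and 12) the vector was AAV9-Tnnt2-Cre, which lacks the sites. Both groups therefore received Cre under the same cardiac muscle promoter, and no liver without a vector is among the samples. The labels give no strain, floxed allele, age, sex, dose, time or batch, and do not say whether each library came from its own animal, so the spread between libraries may be partly technical.

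Mitochondrial ribosomes translate the few proteins that the mitochondrial genome encodes, all of them parts of the respiratory chain and ATP synthase. The ribosomal RNAs of these particles come from mitochondrial DNA, while every protein of the particle is made from a nuclear gene, translated in the cytosol and imported. Liver is rich in mitochondria, and human variants in several of these genes cause childhood disease of oxidative phosphorylation, some with liver or heart involvement. Symbols do not always tell the place in the particle. In structures of the mammalian ribosome the Mrps18a and Mrps30 proteins lie in the large subunit, and the Mrps36 protein is now assigned to the oxoglutarate dehydrogenase complex.

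The nuclear origin of these genes raises the question of what their promoters share, and promoter sequences of 300 bases, 250 before and 50 after the annotated start, were found for 68 of the 77 genes in RefSeq (GRCm38.p6), 74 promoters in all since some genes have several. Factors known to drive nuclear genes for mitochondria include NRF1, the ETS factor GABP, YY1 and Sp1, so the letters TGCGCA (NRF1 core), CCGGAAG (ETS core), ATGGCGG (YY1 core) and GGGCGG (Sp1 core) were searched on both strands. The YY1 and Sp1 cores share the letters GGCGG but not whole matches. Sequences are given for the promoters of Mrps18a and Mrpl22, which held all of the first 3 cores, of Mrps11, which shares its start region with Mrpl46, of Mrpl18, the gene with the smallest p between the vectors, and of Mrpl52, the gene with the lowest fold change. Capitals mark NRF1, ETS and YY1 cores on either strand, and all sequences run 5′ to 3′ on the strand of the gene.
Mrps18a: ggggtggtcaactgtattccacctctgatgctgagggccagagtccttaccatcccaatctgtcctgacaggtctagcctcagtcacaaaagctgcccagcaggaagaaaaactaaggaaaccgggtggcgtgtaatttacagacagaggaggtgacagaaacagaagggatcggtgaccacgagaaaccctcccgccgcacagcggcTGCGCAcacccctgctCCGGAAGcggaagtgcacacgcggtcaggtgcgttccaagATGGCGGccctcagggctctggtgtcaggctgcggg
Mrpl22: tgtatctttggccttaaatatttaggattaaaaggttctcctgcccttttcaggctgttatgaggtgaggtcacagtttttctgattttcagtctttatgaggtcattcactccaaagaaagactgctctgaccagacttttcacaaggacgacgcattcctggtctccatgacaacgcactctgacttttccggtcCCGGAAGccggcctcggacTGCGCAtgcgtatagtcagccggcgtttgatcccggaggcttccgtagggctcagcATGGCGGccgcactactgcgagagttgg
Mrps11: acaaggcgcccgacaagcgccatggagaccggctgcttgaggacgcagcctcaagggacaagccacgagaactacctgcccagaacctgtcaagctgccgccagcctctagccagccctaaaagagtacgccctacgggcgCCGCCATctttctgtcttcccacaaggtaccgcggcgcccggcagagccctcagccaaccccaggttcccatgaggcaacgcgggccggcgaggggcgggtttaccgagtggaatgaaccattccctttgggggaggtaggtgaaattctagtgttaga
Mrpl18: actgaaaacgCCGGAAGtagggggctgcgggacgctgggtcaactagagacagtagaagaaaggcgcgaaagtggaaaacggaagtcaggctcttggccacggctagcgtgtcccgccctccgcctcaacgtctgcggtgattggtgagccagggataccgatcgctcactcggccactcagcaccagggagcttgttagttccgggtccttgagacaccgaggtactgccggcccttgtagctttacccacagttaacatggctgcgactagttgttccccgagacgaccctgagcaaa
Mrpl52: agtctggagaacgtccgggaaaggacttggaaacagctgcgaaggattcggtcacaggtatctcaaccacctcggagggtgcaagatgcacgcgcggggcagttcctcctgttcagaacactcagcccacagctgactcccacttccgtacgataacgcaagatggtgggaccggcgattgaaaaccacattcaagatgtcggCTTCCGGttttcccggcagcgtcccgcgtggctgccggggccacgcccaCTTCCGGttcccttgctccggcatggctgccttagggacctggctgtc
In GRCm38.p6 coordinates these windows are chr17:46110754-46111053 on the plus strand for Mrps18a, chr11:58171414-58171713 on the plus strand for Mrpl22, chr7:78782881-78783180 on the plus strand for Mrps11, chr17:12916042-12916341 on the minus strand for Mrpl18 and chr14:54426659-54426958 on the plus strand for Mrpl52.

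In the Mrps18a window the NRF1 core began at position -42, the ETS core at -26 and the YY1 core at 15, counted from the start as position 1. The Mrpl22 window held them in another order, the ETS core at -53, the NRF1 core at -34 and the YY1 core at 23. In both the YY1 core began with ATG after the annotated start. Mrpl52 held the ETS core on the reverse strand at -47 and again at 3, and Mrpl18 held it far upstream at -240. For Mrpl18 and Mrpl22 the RefSeq start lies inside the gene's span in the count table, whose own first base is farther upstream.

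A gene was counted once if any of its promoters held a core, for members and tested genes alike. Of the 68 members with a promoter, 20 (29.4%) held the NRF1 core, against 14.9% of the 10845 tested genes with a promoter. The ETS core was held by 25 members (36.8%), against 18.5% of tested genes, and the YY1 core by 13 members (19.1%), against 8.66%. Outside Mrps11, where it lay at -109, every member's YY1 core began after the annotated start, at positions 3 to 31. Its letters hold ATG, and the part of start codons in the YY1 share was not tested. The Sp1 core was held by 34 members (50%), against 64.8% of tested genes. Counted per promoter and not per gene, the shares over all 32851 promoters of the table were 7.76% for the NRF1 core, 8.86% for the ETS core, 4.06% for the YY1 core and 35.7% for the Sp1 core. At least 1 of the NRF1, ETS and YY1 cores was held by 45 members (66.2%), against 35.4% of tested genes, and 2 or more kinds in 11 (16.2%), against 6.34%. Members thus held the first 3 cores at a higher share than tested genes did, and the Sp1 core at a lower share, with no test made of either. A gene with more promoters has more chances to hold a core, and the number of promoters per gene was not compared. A match is a run of letters and not a measured binding site.

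Many members also start back to back with a neighbour, where a start is the outermost base of a gene in the count table and not the RefSeq start. A start of another gene on the opposite strand lay within 500 bases for 32 of 77 members (41.6%), against 3101 of 14373 tested genes (21.6%). Mrpl46 and Mrps11 form such a pair with each other, with 42 bases between their starts. Mrps12 faces Sars2, the mitochondrial seryl-tRNA synthetase gene, at 69 bases, and Mrpl47 faces Ndufb5, a gene of respiratory complex I, at 308 bases. By the spans of the count table the first bases of Mrpl18 overlap those of Tcp1, a gene of the cytosolic chaperonin CCT. The distance between these starts was -149, the sign marking the overlap. The RefSeq start of Mrpl18 lies inside its span, and the distance from there was not computed. The neighbours of Mrpl2, Mrpl49 and Mrpl32 were Klc4, Fau and Psma2.

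Member levels were compared as counts per kilobase of exonic length per 1e6 counts of scaled library size (RPKM), averaged over the 6 libraries. Their median was 18.9 RPKM, against 3.65 RPKM over all tested genes and 192 RPKM over the cytosolic ribosomal protein genes. The middle of the family was compact, with a 90th percentile of 40.6 RPKM that was 5.75 times the 10th percentile of 7.05 RPKM, while the highest member stood 44.6 times above the lowest. Mrpl12, a protein of the stalk that contacts translation factors and is reported to bind the mitochondrial RNA polymerase, was highest at 87.4 RPKM. Mrpl18, a protein near the central protuberance of the large subunit, followed at 64.1 RPKM and Mrps18c, one of 3 paralogs of bacterial S18, at 48.3 RPKM. The lowest were Mrps25 at 1.96 RPKM, Mrpl19 at 2.96 RPKM and Mrps10 at 5.64 RPKM.

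Part of this order depends on the length used. The table's exonic length joins all exons of a gene, so a long rare isoform lowers the RPKM. With the length of a single GENCODE transcript in its place, Mrpl18 stood first at 68.4 RPKM and Mrpl12 next at 63.0 RPKM, Mrps18c had rank 11 at 38.0 RPKM, and Mrps10 moved up from rank 75 to rank 21 at 26.8 RPKM. Mrps25 and Mrpl19 kept ranks 77 and 76. The change of length went both ways. The transcript was shorter than the table's length for Mrps10 (1018 against 4844 bases). It was longer for others, such as Mrps18c (638 against 502 bases) and Mrps16 (2572 against 566 bases), which lowers their level. Where the annotation did not single out a transcript, the longest was taken. The Spearman correlation between the 2 scales was 0.66 over 77 genes that share libraries and counts. Exons that overlap another gene add a further limit for 18 members (23.4%), since no source used here gives the strand setting of the counting. The overlap covered 64.9% of the exonic bases of Mrps18b, 58.4% of Mrps25, 41.4% of Mrpl41, 31.8% of Mrpl43 and 22.8% of Mrpl19, and 7.37% of Mrpl18, and the counts of these genes are uncertain.

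**Figure D1:**
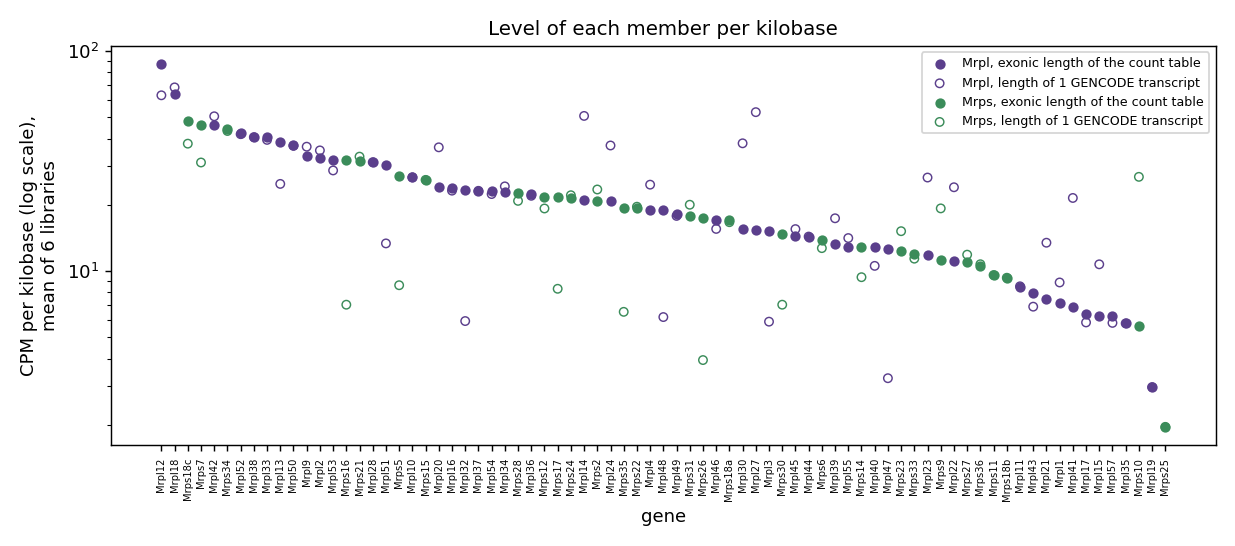
Level of each of the 77 members as CPM per kilobase (RPKM, log axis), mean of the 6 libraries, in order of level, with filled points by the exonic length of the table and open points by the length of a GENCODE transcript. By the table's length the values run from 1.96 RPKM for Mrps25 to 87.4 RPKM for Mrpl12, and open points far from the filled ones mark genes whose level depends on the length used.

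Before the vectors are compared, the libraries themselves need describing. Total counts ran from 20340994 to 20817837. Cre replicate 10 held 1676 counts of the Y-linked gene Ddx3y and 5 of the X-inactivation transcript Xist, and each of the other libraries held at most 1 count of Ddx3y and at least 15778 of Xist. The Cre group thus mixed libraries that differ in sex-linked genes, and the fit on group alone did not adjust for this. Hepatocyte markers (Alb, Ttr, Apoa1, Serpina1c, Cps1, Fabp1) summed to 134671 to 139145 counts scaled to a library total of 1e6 (CPM) in Cre-miR122 livers and 126327 to 139540 CPM in Cre livers, so the markers of the labelled tissue were abundant throughout. Cardiac muscle markers (Myh6, Tnni3, Actc1, Ryr2) summed to at most 0.686 CPM in Cre-miR122 livers and 0.688 CPM in Cre livers, and Actc1 was at 0 in every library. The B cell markers, all 4 with a log2 fold change below 0, summed to 10.48 to 14.4 CPM in Cre-miR122 livers, against 17.98 to 25.02 CPM in Cre livers. The neutrophil markers, with all 3 that were tested below 0, summed to 7.36 to 8.57 CPM in Cre-miR122 livers, against 9.23 to 12.98 CPM in Cre livers. The cell cycle markers, all 4 above 0, summed to 125 to 160 CPM in Cre-miR122 livers, against 82.9 to 126 CPM in Cre livers. The cholangiocyte, Kupffer cell, sinusoidal endothelium, stellate cell, T and NK cell and erythroid markers had genes on both sides of 0. The sums of each of these lists overlapped between the vectors. The part of the marker differences in the results below was not tested.

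Together the members held a small part of the liver transcriptome. They took 0.219%, 0.211% and 0.206% of all counts in Cre-miR122 replicates 1, 2 and 4, against 0.230%, 0.244% and 0.207% in Cre replicates 10, 11 and 12. Scaled by TMM, which corrects library sizes for a few dominant genes, their CPM summed to 2224, 2105 and 2076 in the Cre-miR122 libraries, against 2317, 2316 and 2124 in the Cre libraries. The means were 2135 ± 78.5 CPM in Cre-miR122 livers and 2253 ± 112 CPM in Cre livers (SD, n = 3 each). The groups overlapped, with Cre-miR122 replicate 1 above Cre replicate 12, and Cre-miR122 replicates 2 and 4 just below it. In bulk tissue, fewer cells of a type and less RNA per cell cannot be told apart.

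The libraries were also compared gene by gene. For each gene the log2 CPM in a library was set against its mean over the 6 libraries. The median of these deviations over the 77 members was 0.035, -0.048 and -0.091 in Cre-miR122 replicates 1, 2 and 4, and 0.092, 0.086 and -0.049 in Cre replicates 10, 11 and 12. Of the 77 members, 12, 2 and 5 were highest in Cre-miR122 replicates 1, 2 and 4, against 23, 33 and 2 in Cre replicates 10, 11 and 12. The members lowest in a library numbered 4, 18 and 32 in Cre-miR122 replicates 1, 2 and 4, against 2, 6 and 15 in Cre replicates 10, 11 and 12. Cre-miR122 replicate 1 and Cre replicates 10 and 11 were thus the libraries with higher values, and the other 3, of both vectors, those with lower values. The same medians over all tested genes lay between -0.0014 and 0.0039.

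**Figure D2:**
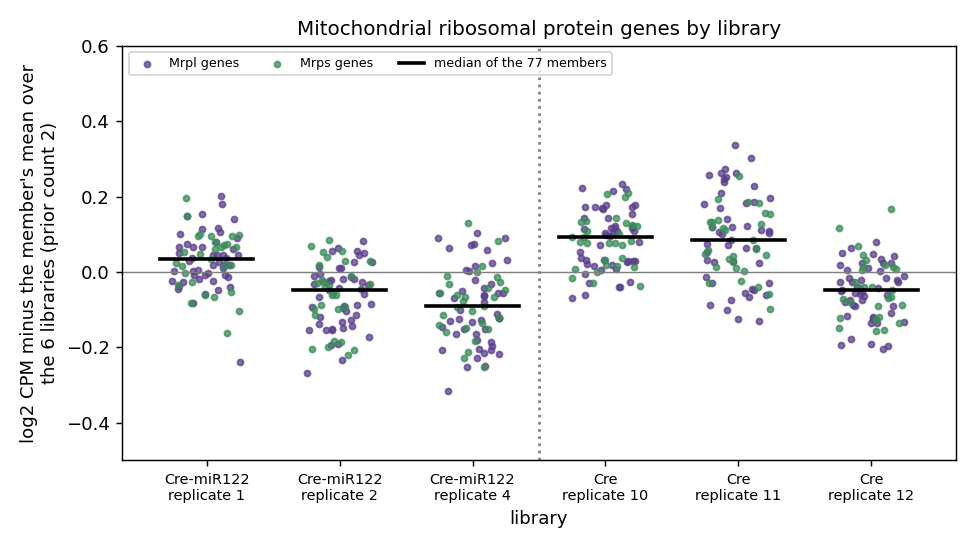
Deviation of each of the 77 members from its own mean over the 6 libraries, on the log2 CPM scale, with the Cre-miR122 libraries left of the Cre libraries and a black bar at the median. The medians are 0.035, -0.048 and -0.091 in Cre-miR122 replicates 1, 2 and 4, and 0.092, 0.086 and -0.049 in Cre replicates 10, 11 and 12, so Cre replicate 12 lies with Cre-miR122 replicates 2 and 4.

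To ask whether the miR-122 sites in the vector went with a different level of any mitochondrial ribosomal protein gene, the counts were fitted with edgeR's quasi-likelihood test over all 14374 genes. No member was called at a Benjamini-Hochberg adjusted p under 0.05, where 0% of all tested genes were called. The smallest adjusted p over all genes was 0.816, and DESeq2 and limma-voom called 0 members as well. At an unadjusted p under 0.05, edgeR gave 4 members lower in Cre-miR122 livers, beside 2.65% of all tested genes, and 0 members higher, beside 2.76% of all tested genes. In either direction at that level, DESeq2 gave 2 members, beside 3.53% of all tested genes, and limma-voom 5, beside 5.54%, both near the background. None of the differences described here therefore passed the test.

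The members' values were small and lay mostly on the negative side. The log2 fold change, Cre-miR122 over Cre, was below 0 for 62 and above 0 for 15 of 77 members, beside 50.6% below 0 over all tested genes. Its median was -0.087, against -0.0029 over all tested genes, and the members spanned -0.29 to 0.081. The median standard error of a member was 0.096, so the typical difference was smaller than its own error. Within a group the members varied by a median coefficient of variation of 7.22%, against 11.01% over all tested genes. The members' values share the same 6 libraries and are not independent observations.

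**Figure D3:**
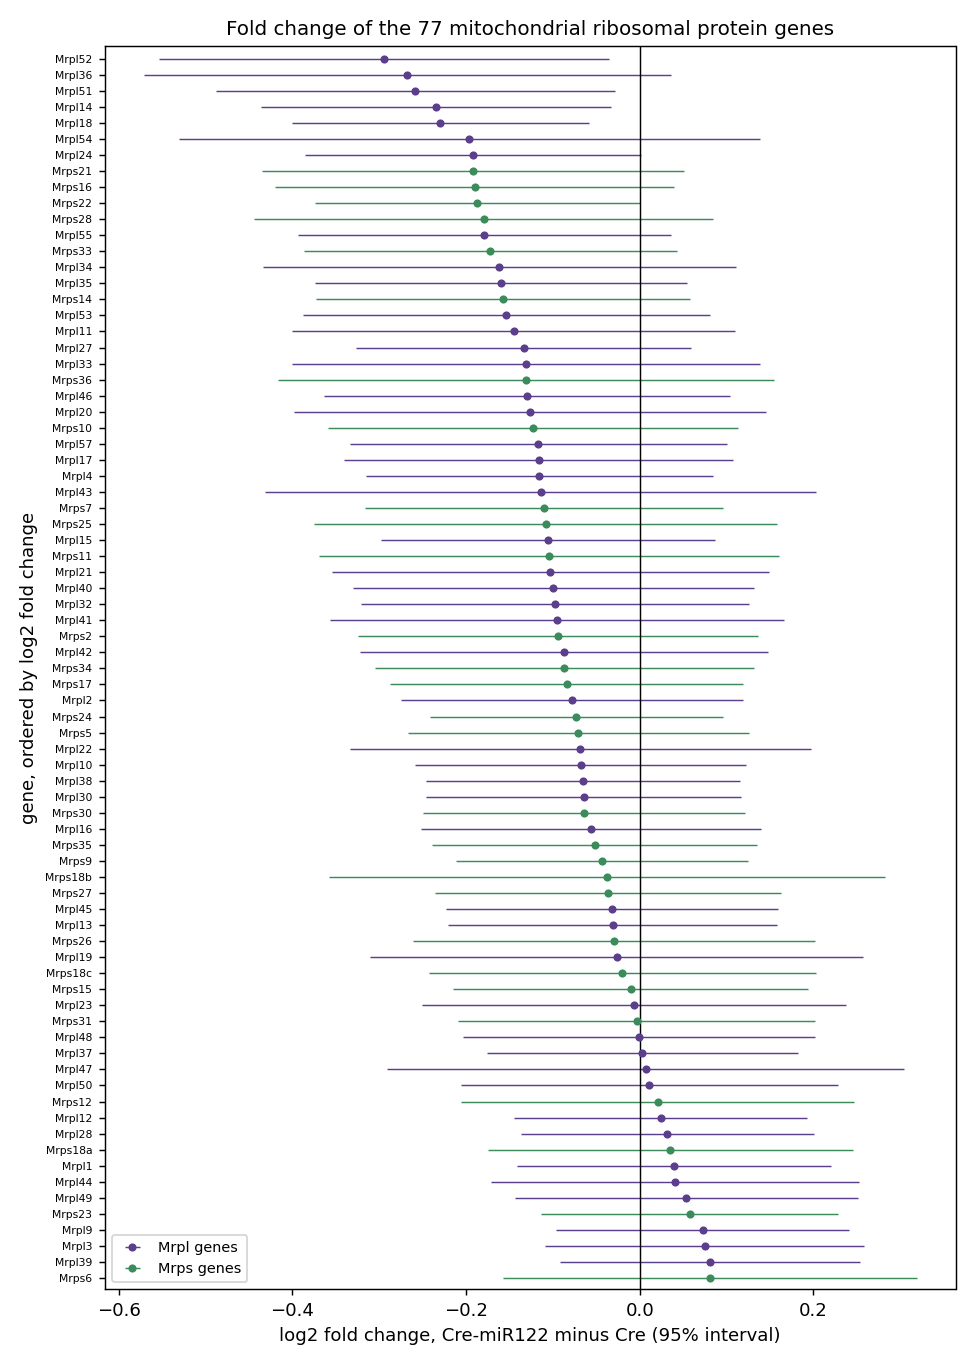
Log2 fold change of each of the 77 members, Cre-miR122 over Cre, with 95% intervals from edgeR, sorted by value. The points run from -0.29 for Mrpl52 to 0.081 for Mrps6, 62 lie below 0, and 4 intervals leave out 0.

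Large-subunit and small-subunit genes had similar medians. Among the 48 Mrpl genes 37 lay below 0 with a median of -0.096, and among the 29 Mrps genes 25 lay below 0 with a median of -0.073. Placed by ribosome structures, with Mrps18a and Mrps30 moved to the large subunit and Mrps36 left out, the medians were -0.091 for 50 large-subunit genes and -0.079 for 26 small-subunit genes. The 45 members whose protein has a counterpart in bacterial ribosomes had a median of -0.084, and the 32 without, Mrps36 among them, -0.087. Medians lay below 0 with and without each promoter core. Members with and without the NRF1 core had medians of -0.068 and -0.097, and those with and without the ETS core -0.12 and -0.073. With and without the YY1 core they were -0.068 and -0.095, and with and without the Sp1 core -0.092 and -0.068. The differences between these medians were not tested.

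The 4 large-subunit genes with an unadjusted p under 0.05 were Mrpl18, Mrpl14, Mrpl52 and Mrpl51. Mrpl18 (chr17:12911345-12916478, minus strand), whose protein is the counterpart of bacterial L18, was at 78.4, 77.8 and 74.1 CPM in Cre-miR122 livers, against 90.1, 94.4 and 85.7 CPM in Cre livers. Every Cre-miR122 library lay below every Cre library, with means of 76.8 ± 2.34 CPM and 90.1 ± 4.36 CPM (SD, n = 3 each). The log2 fold change was -0.23 (SE 0.076, 95% interval -0.40 to -0.058), and its edgeR adjusted p was 0.816. It lay between -0.26 and -0.20 when each library was left out in turn.

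Mrpl14 (chr17:45685724-45698495, plus strand), the counterpart of bacterial L14 at the face between the subunits, was at 27.6, 32.8 and 29.9 CPM in Cre-miR122 livers, against 36.9, 35.2 and 34.1 CPM in Cre livers. These groups also did not overlap, and the log2 fold change was -0.23 (SE 0.090, edgeR adjusted p 0.816). Mrpl52 and Mrpl51 are proteins without a bacterial counterpart. Mrpl52 (chr14:54426909-54429750, plus strand) was at 17.5, 15.2 and 14.6 CPM in Cre-miR122 livers, against 19.6, 21.4 and 16.9 CPM in Cre livers, a log2 fold change of -0.29 (SE 0.12). Mrpl51 (chr6:125192200-125194392, plus strand) was at 44.2, 40.3 and 40.6 CPM in Cre-miR122 livers, against 53.0, 53.7 and 43.0 CPM in Cre livers, a log2 fold change of -0.26 (SE 0.10). In both genes Cre replicate 12 lay inside the range of the Cre-miR122 libraries, and edgeR's adjusted p was 0.816 for each.

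Among small-subunit genes Mrps22 (chr9:98588730-98601679, minus strand) had the smallest p. Its protein has no bacterial counterpart, and human MRPS22 is a gene of inherited mitochondrial disease. It was at 22.8, 20.6 and 22.5 CPM in Cre-miR122 livers, against 24.7, 24.0 and 26.3 CPM in Cre livers, without overlap, and the log2 fold change was -0.19 (SE 0.083, unadjusted edgeR p 0.0501, adjusted 0.816). Here Cre replicate 12 was the highest library, unlike in most of the family.

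**Figure D4:**
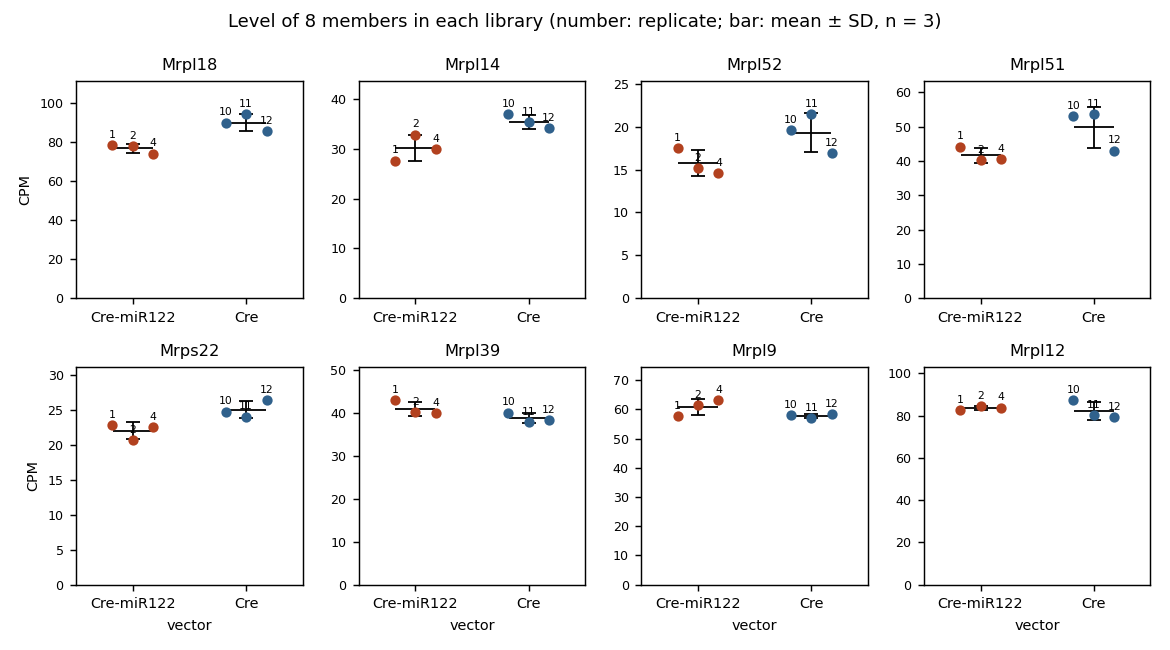
CPM of 8 members in each library (points, numbered by replicate) with mean ± SD (n = 3), Cre-miR122 left of Cre in each panel and each axis starting at 0. In Mrpl18, Mrpl14 and Mrps22 the groups do not overlap, in Mrpl52 and Mrpl51 Cre replicate 12 lies among the Cre-miR122 libraries, and Mrpl39, Mrpl9 and Mrpl12 overlap at similar levels.

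Groups that do not overlap were found for 9 members. Every Cre-miR122 library lay below every Cre library in 8 of 77, beside 5.45% of all tested genes, and above in 1 of 77, beside 5.69% of all tested genes. The 8 were Mrps24, Mrpl55, Mrpl27, Mrpl18, Mrpl14, Mrpl24, Mrps33 and Mrps22, and the 1 on the other side was Mrps23. With 3 libraries a group an exact permutation test cannot give a p below 0.1, so separation of a single gene is a description. Mrps23, a small-subunit protein, was at 20.4, 20.99 and 20.5 CPM in Cre-miR122 livers, against 19.8, 19.8 and 19.9 CPM in Cre livers. The log2 fold change was only 0.058 (SE 0.076, edgeR adjusted p 0.884), and the 3 Cre libraries were nearly equal.

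On the positive side the values stayed small. The 5 members with the smallest p there were Mrpl39, Mrpl9, Mrpl3, Mrps6 and Mrps23, with log2 fold changes of 0.058 to 0.081 and edgeR adjusted p of 0.839 to 0.884. Mrpl39, a protein resembling threonyl-tRNA synthetase, was at 42.9, 40.1 and 39.97 CPM in Cre-miR122 livers, against 40.1, 37.9 and 38.4 CPM in Cre livers. Mrpl9, the counterpart of bacterial L9, was at 57.7, 61.6 and 63.1 CPM in Cre-miR122 livers, against 58.1, 57.0 and 58.4 CPM in Cre livers. Both overlapped between the vectors. Mrpl3, the counterpart of bacterial L3 and a human disease gene, was at 24.5, 22.9 and 24.6 CPM in Cre-miR122 livers, against 23.8, 21.4 and 23.1 CPM in Cre livers, again with overlap. Mrps6, which shares 18.6% of its exonic bases with the myo-inositol transporter gene Slc5a3, was at 11.5, 10.3 and 11.4 CPM in Cre-miR122 livers, against 10.7, 10.8 and 9.85 CPM in Cre livers.

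Among members with special roles, Mrpl12, Mrpl45, Mrpl44 and Mrps12 lay close to 0, while Mrpl11 and Mrps16 lay further below it. Mrpl12 was at 82.7, 84.4 and 83.7 CPM in Cre-miR122 livers, against 87.1, 80.1 and 79.4 CPM in Cre livers, and its 95% interval of the log2 fold change ran from -0.15 to 0.19. Mrpl45, which anchors the ribosome to the inner membrane, had a log2 fold change of -0.032 (95% interval -0.22 to 0.16). Mrpl44, related to ribonuclease III, had 0.041 (95% interval -0.17 to 0.25), and Mrps12, a protein of the decoding centre, 0.021 (95% interval -0.21 to 0.25). Mrpl11, another stalk protein, had -0.15 (SE 0.11), with Cre-miR122 replicate 1 at 28.5 CPM and replicates 2 and 4 at 21.95 and 23.6 CPM, against 29.2, 27.8 and 24.8 CPM in Cre livers. Among genes of human mitochondrial disease, Mrps16 had -0.19 (SE 0.10) and Mrps34 -0.087 (SE 0.097). Over these 7 genes the 95% intervals reached from -0.42 (Mrps16) to 0.25 (Mrpl44).

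The 3 paralogs of bacterial S18 had similar log2 fold changes of 0.035 for Mrps18a, -0.037 for Mrps18b and -0.020 for Mrps18c. Mrps18a, whose promoter holds all 3 cores, was at 14.7, 15.5 and 14.6 CPM in Cre-miR122 livers, against 15.1, 15.2 and 13.4 CPM in Cre livers. Mrps18c was at 25.9, 23.8 and 22.5 CPM in Cre-miR122 livers, against 25.4, 26.1 and 21.7 CPM in Cre livers. Mrps18b was at 11.5, 8.66 and 9.68 CPM in Cre-miR122 livers, against 11.6, 9.84 and 9.15 CPM in Cre livers, with most of its exonic bases shared with another locus. Mrps36 had the lowest CPM of the family, 8.03, 6.43 and 7.11 CPM in Cre-miR122 livers, against 8.22, 7.64 and 7.75 CPM in Cre livers, and a log2 fold change of -0.13 (SE 0.13). Mrpl46 and Mrps11, which start back to back, had -0.13 (SE 0.10) and -0.10 (SE 0.12).

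Gene length moved with the fold change across the whole table. The median log2 fold change was -0.11 for the 858 tested genes with an exonic length below 1 kb, -0.049 at 1 to 2 kb, -0.0028 at 2 to 4 kb and 0.033 above 4 kb. Members are short, 22 of them below 1 kb and 35 at 1 to 2 kb, and their medians in these classes were -0.092 and -0.068. The 14 members at 2 to 4 kb had a median of -0.099 and the 6 above 4 kb of -0.11, both below the medians of the table in those classes. The Spearman correlation of log2 fold change with exonic length was 0.15 over 77 members and 0.21 over all tested genes, and it was -0.022 with GC content over the members, in each case over genes that share the libraries. With a trend over exonic length removed, the members' median was -0.023 and 47 of 77 lay below 0. The genes below 1 kb as a class deviated by 0.035, -0.061 and -0.13 in Cre-miR122 replicates 1, 2 and 4 and by 0.072, 0.16 and -0.040 in Cre replicates 10, 11 and 12, with the same sign as the members in each library. The part of length in the members' values was not tested beyond this.

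Single libraries weighed on the counts. Leaving out Cre replicate 12 moved the members' median to -0.14, and leaving out Cre replicate 11 moved it to -0.046. Leaving out Cre-miR122 replicate 1 gave -0.13, and leaving out Cre-miR122 replicate 4 gave -0.053. Members below 0 numbered 64, 57 and 58 on leaving out Cre-miR122 replicates 1, 2 and 4. They numbered 52, 61 and 66 on leaving out Cre replicates 10, 11 and 12. Members lower at an unadjusted p under 0.05 numbered 7, 2 and 0 on leaving out Cre-miR122 replicates 1, 2 and 4, beside 3.56%, 2.18% and 1.36% of all genes then tested. They numbered 2, 3 and 10 on leaving out Cre replicates 10, 11 and 12, beside 2.87%, 1.69% and 5.03%. Over these 6 fits 47 members were below 0 in each, 8 above 0 in each, and 22 changed sign in at least 1.

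The genes that work with the mitochondrial ribosome had medians closer to 0 than the members. These medians and those of the lists below were not adjusted for exonic length, with which the fold change moved across the whole table. The part of length in these contrasts was not tested. Of 6 subunit genes outside the naming rule 3 lay above and 3 below 0, with a median of -0.0092. Dap3, a GTP-binding small-subunit protein, was at 45.0, 45.2 and 47.6 CPM in Cre-miR122 livers, against 44.4, 45.7 and 45.2 CPM in Cre livers, and Ptcd3, an RNA-binding small-subunit protein, had a log2 fold change of 0.17 (SE 0.089). Gadd45gip1, a large-subunit protein, lay lower at 20.3, 18.9 and 19.8 CPM in Cre-miR122 livers, against 23.3, 23.4 and 20.8 CPM in Cre livers (log2 fold change -0.19, unadjusted edgeR p 0.0482, adjusted 0.816). The 24 tested of 26 assembly and rRNA modification genes had a median of -0.0053, 12 on each side of 0. The list of translation factors, which also held Oxa1l, Pdf and Mtfmt, had 0.030 over 15 tested of 16 genes, with 9 above and 6 below 0. The 22 genes of the mitochondrial aminoacyl-tRNA synthetase list, which also held Qrsl1, Gatb and Gatc, had 0.016, with 13 above and 9 below. Taco1, the translational activator of COX1, was at 12.8, 14.6 and 15.9 CPM in Cre-miR122 livers, against 11.9, 9.23 and 12.7 CPM in Cre livers (log2 fold change 0.36, SE 0.14, edgeR adjusted p 0.816). No gene of these lists passed the adjusted threshold.

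Upstream of the members, 8 of 11 regulator genes lay above and 3 below 0, with a median of 0.065. Gabpa, which encodes the subunit of GABP that binds the ETS core, was at 51.3, 52.8 and 51.4 CPM in Cre-miR122 livers, against 46.7, 45.0 and 48.5 CPM in Cre livers, without overlap (log2 fold change 0.15, SE 0.075, edgeR adjusted p 0.816). Nrf1, the factor of the NRF1 core, had 0.15 (SE 0.11). Ppargc1a, a coactivator of mitochondrial biogenesis, ranged widely, with 34.3, 18.9 and 27.1 CPM in Cre-miR122 livers, against 33.3, 17.3 and 22.6 CPM in Cre livers. Among 9 genes for transcription of mitochondrial DNA 2 lay above and 7 below 0 with a median of -0.036. In that list Tfam had -0.023, the mitochondrial RNA polymerase Polrmt -0.059 and the mRNA-stabilising Lrpprc 0.13. The elongation factor Tufm, from the translation factors, had 0.098 (SE 0.085).

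The transcripts that the ribosome translates, and the proteins of the cytosolic ribosome, had lower medians than the members. All 13 protein genes of the mitochondrial genome were below 0 with a median of -0.22, 2 of them at an unadjusted edgeR p under 0.05 (COX2 and ATP6) and 0 at the adjusted threshold. Their per-library medians differed from those of the members, at -0.0098, -0.19 and -0.14 in Cre-miR122 replicates 1, 2 and 4 and 0.30, 0.012 and 0.027 in Cre replicates 10, 11 and 12, so Cre replicate 10 alone stood high. Without Cre replicate 10 the median was -0.10. COX2 was counted at 26.9 to 36.4 CPM in Cre-miR122 livers and 34.1 to 42.2 CPM in Cre livers. This was far below COX1 at 22748 to 24591 CPM in Cre-miR122 livers and 22980 to 29859 CPM in Cre livers. Means over the 6 libraries were also low for ATP6, COX3, ND3, ND4L and ATP8, at 55.2, 40.7, 11.8, 6.66 and 1.23 CPM. The lowest mean among the other genes of the list was 1646 CPM for ND6. The list's median of -0.22 was the value of COX3. No source used here says how multi-mapping reads were counted, so the values of these low genes and the list's medians are uncertain. The 74 tested of 78 cytosolic ribosomal protein genes all lay below 0, with a median of -0.17, 3 at an unadjusted p under 0.05 and 0 called. Their medians were 0.040, -0.097 and -0.18 in Cre-miR122 replicates 1, 2 and 4 and 0.041, 0.27 and -0.063 in Cre replicates 10, 11 and 12, highest in Cre replicate 11. Without Cre replicate 11 their median was -0.075. The members were high in both Cre replicates 10 and 11.

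**Figure D5:**
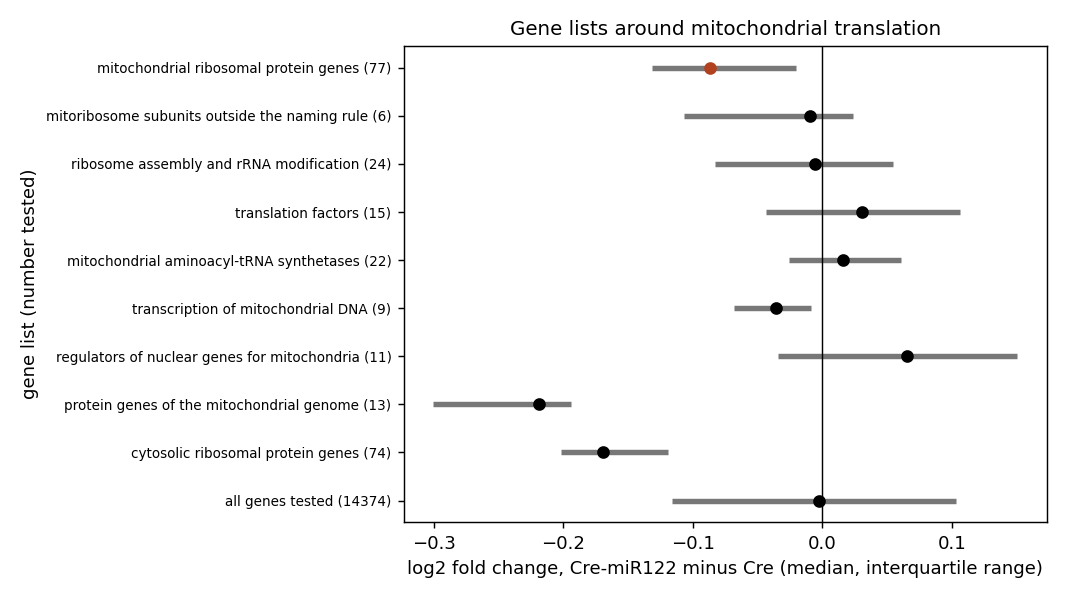
Log2 fold change, Cre-miR122 over Cre, of each gene list, with the point at the median and the bar over the interquartile range of its tested genes (number in brackets). The members have a median of -0.087, the mitochondrial genome's protein genes -0.22 and the cytosolic ribosomal protein genes -0.17, and the medians of the other lists lie between -0.036 and 0.065. The medians are not adjusted for exonic length.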

How the data were processed

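The members and gene lists were chosen with earlier results of these data known. The authors deposited whole-number read counts per gene without normalization. The tools named in the submitters' processing notes are STAR 2.7.9a and featureCounts 2.0.1, and the build is GRCm38 (mm10). No source used here gives the strand setting, annotation or treatment of multi-mapping reads. Exonic lengths and coordinates are those in the deposited table. Of its columns 5 matched no sample and were not used.

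The contrast Cre-miR122 minus Cre was fitted over all genes with edgeR 4.0.16 (R 4.3.3): filterByExpr, TMM scaling, quasi-likelihood F test on group alone, two-sided, Benjamini-Hochberg threshold 0.05. Standard errors and 95% intervals came from the F statistic, and deviations used log2 CPM with a prior count of 2. The fit was tested on simulated counts with no change or with changes larger than any member's. How often it finds changes as small as the members' was not tested. Every member had at least 133 counts in each library. No test was made of the members as a list.

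Named genes were the 5 members of smallest p in each direction, the 3 highest and lowest by RPKM, and a fixed set by role. Others named for non-overlap, p or start position were chosen after their values were seen. Alternatives were other scalings (RLE, upper quartile, none), other filters on low counts, limma-voom 3.58.1, DESeq2 1.42.0, robust dispersion, another threshold, a trend over exonic length, each library left out and, added after seeing the data, a trend over GC content with length and a level by a GENCODE M21 transcript length.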

Additional observations from a re-analysis of the deposited data

How the results depend on the processing

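No member was called under any of the settings tried, and the members' median log2 fold change stayed below 0 in all 16. Over all genes edgeR called 0 in the main setting, 2 without a filter on low counts and 3 came from DESeq2. The members' median was -0.086 with RLE, -0.10 with upper-quartile and -0.11 with no scaling, and -0.032 with a trend over GC content and length removed, a setting added after seeing the data. Members without overlap numbered 9, and 10 to 33 when each library was left out. Fewer libraries make separation easier. On leaving out Cre-miR122 replicates 1, 2 and 4 the members' share was 42.9%, 18.2% and 13%, beside 27.6%, 19.4% and 17.1% of all genes. On leaving out Cre replicates 10, 11 and 12 it was 18.2%, 14.3% and 39%, beside 21.1%, 17.5% and 28.4%.

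Of 528 values of 33 named genes under alternatives, 501 kept their direction. Leaving out each library in turn moved Mrps12 between -0.042 and 0.10, Ppargc1a between -0.082 and 0.43, Mrpl19 between -0.13 and 0.053, Mrpl45 between -0.092 and 0.017, Mrps18b between -0.15 and 0.064, Tfam between -0.058 and 0.028, Mrps18c between -0.098 and 0.031, Mrpl44 between -0.0020 and 0.13 and Mrps18a between -0.020 and 0.066. Mrps12 was -0.0018 with no scaling. With the length trend removed Mrps18c was 0.12, Mrps34 0.0035 and Mrps18b 0.037, and with GC content added Mrps18c was 0.087, Mrps34 0.051, Mrps18b 0.033 and Dap3 -0.00098. The cause of these changes of sign was not tested, and all main values were within their standard error of 0. No paired analysis was possible because the groups share no replicate number.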
